A study of Mus musculus with 12 samples.

Results

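Expression of 7 homeobox transcription factors of the primitive streak, Mixl1, Gsc, Lhx1, Evx1, Cdx1, Cdx2 and Cdx4, was followed from mouse embryonic stem cells (ESCs) into sorted day 3 cells. The members were taken by gene symbol from the deposited transcript annotation, where each of the 7 matched 1 locus, out of 80012 loci counted. All 7 were among the 17922 loci tested, which had a mean FPKM (counts per kilobase of exon, scaled to library size) above 0.1 in at least 1 group. Every library came from an EomesEGFP reporter ESC line with a C57BL/6 background, in which EGFP was placed at the start of transcription of Eomes itself. Eomes, a T-box factor of the early mesendoderm, was therefore the sorting criterion. ESCs were kept on mouse embryonic fibroblast feeders and sampled at day 0. For the other groups the same line was differentiated as embryoid bodies in hanging drops and sorted at day 3 by fluorescence into a fraction with the reporter signal (Eo+) and one without it (Eo-). Each group had 4 poly(A) RNA libraries, numbered 1, 2, 5 and 6. The samples were cultures of 1 reporter line from separate differentiation sets, so p-values measure the spread between cultures of that line.

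The primitive streak is the groove through which cells of the early embryo move inwards at gastrulation, and a cell's place along its length goes with the tissue it later forms. Gsc (goosecoid) and Lhx1 (Lim1) are known from the anterior streak and the organizer, where LHX1 acts with LDB1 as a cofactor. Evx1 and the caudal-related genes Cdx1, Cdx2 and Cdx4 belong to the posterior streak, and CDX proteins activate Hox genes in the tail end of the embryo. Mixl1, a paired-like factor downstream of Nodal and BMP signalling, is found along the whole streak. In the description below Gsc and Lhx1 are called the anterior genes and Evx1 and the 3 Cdx genes the posterior genes.

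Before the values, the DNA just ahead of the start of 3 genes that were higher in Eo+ cells and of 1 that was not is shown, because the members differ in what lies there. The sequences are RefSeq promoter windows (GRCm38.p6, the build of the deposited files), written 5′ to 3′ on the strand of the gene and cut where the gene begins in the GENCODE M21 annotation. Capitals mark the only matches to the motifs listed next, a CDX motif and a T-box motif in the Evx1 window.

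Gsc, chr12:104473331-104473486, minus strand: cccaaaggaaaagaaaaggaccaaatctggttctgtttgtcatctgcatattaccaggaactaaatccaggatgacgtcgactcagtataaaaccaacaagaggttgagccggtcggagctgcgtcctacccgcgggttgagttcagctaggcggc

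Lhx1, chr11:84525536-84525784, minus strand: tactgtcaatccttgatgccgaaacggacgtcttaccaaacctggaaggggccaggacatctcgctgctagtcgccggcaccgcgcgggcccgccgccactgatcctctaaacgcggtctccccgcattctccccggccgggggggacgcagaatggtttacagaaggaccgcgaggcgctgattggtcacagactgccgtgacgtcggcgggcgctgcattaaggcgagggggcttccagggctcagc

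Evx1, chr6:52313248-52313497, plus strand: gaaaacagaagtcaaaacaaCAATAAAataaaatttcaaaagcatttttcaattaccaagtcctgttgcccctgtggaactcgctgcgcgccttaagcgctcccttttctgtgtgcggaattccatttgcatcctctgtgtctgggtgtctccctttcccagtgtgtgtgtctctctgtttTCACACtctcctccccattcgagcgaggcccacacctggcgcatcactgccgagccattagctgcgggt

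Cdx2, chr5:147307271-147307499, minus strand: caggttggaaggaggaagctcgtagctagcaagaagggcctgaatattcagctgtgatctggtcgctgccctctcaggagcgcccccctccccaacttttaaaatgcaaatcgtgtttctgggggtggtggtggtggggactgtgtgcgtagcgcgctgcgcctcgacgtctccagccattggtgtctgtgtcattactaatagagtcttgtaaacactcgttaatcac

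Windows were found for 5 of the 7 members, which leaves out Mixl1 and Cdx1. The 250 bases before the start were searched on both strands. The motif of TCF/LEF factors was CTTTGA, and that of T-box factors was TCACAC. The FOXH1 motif was AATCCAC. For GATA factors the motif AGATAA was searched. For homeodomains of the bicoid type it was TAATCC. The CDX motif had 1 form written CAATAAA and another written CCATAAA. In the Evx1 window CAATAAA was found at bases 230 to 224 before the start and TCACAC at bases 69 to 64. Among all 32851 windows of the same length, 4.2% held CAATAAA and 12.3% held TCACAC. The other motifs, which occurred in 2.1% to 13.8% of all windows, were not matched in the 5 windows. These are matches of letters and not binding sites. Counted over the full 250 bases before the RefSeq start, which for Gsc, Cdx2 and Lhx1 reach beyond the bases printed, Lhx1 and Gsc had 26 and 22 CpG dinucleotides and Cdx2, Evx1 and Cdx4 had 13, 10 and 5. The median of all windows was 6.

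The merged loci that carry the counts were longer than the annotated genes for most members. Mixl1 (ENSMUSG00000026497) was counted over chr1:180688072-180698050 on the minus strand and Evx1 (ENSMUSG00000005503) over chr6:52310485-52447441 on the plus strand. The other loci were Gsc (ENSMUSG00000021095) at chr12:104471206-104474528, Lhx1 (ENSMUSG00000018698) at chr11:84515758-84528081, Cdx1 (ENSMUSG00000024619) at chr18:61018862-61036199 and Cdx2 (ENSMUSG00000029646) at chr5:147296763-147307610, each on the minus strand, and Cdx4 (ENSMUSG00000031326) at chrX:103321190-103331231 on the plus strand. The share of locus exon bases outside the annotated exons was 68.9% for Mixl1, 62.2% for Cdx2 and 54.4% for Evx1. It was 44.6% for Gsc, 43.9% for Lhx1, 34.0% for Cdx4 and 5.10% for Cdx1. An FPKM level therefore depends on this length, while a fold change of the same locus does not. Both cover the reads of the whole merged locus, since counts limited to the annotated exons were not made. Values given below per annotated exon length divide these same counts by the annotated length. They are raised most where the share outside the annotated exons was largest.

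Libraries held 648413022 to 837308168 locus counts, so that 3 counts amounted to at most 0.00467 CPM (counts scaled to library size, without the length), and the lowest member count in any library was 81, for Cdx1 in Eo- replicate 5. Summed markers of pluripotent cells ran from 2626 to 3530.1 CPM in ESCs, from 1142 to 1501 CPM in Eo- and from 439.7 to 765 CPM in Eo+ cells. Summed mesendoderm markers (Eomes, T, Mesp1, Foxa2, Cer1 and Sox17) ran from 88.0 to 252 CPM, from 254 to 492 CPM and from 1306 to 2014 CPM in the same order. The 8 feeder fibroblast markers summed to 91.9 to 229.8 CPM in ESC libraries and to 18.3 to 35.8 CPM at day 3. Mean Eomes RNA was 46.5 CPM in ESCs, 137 CPM in the Eo- and 527 CPM in the Eo+ fraction (n = 4 each). In bulk RNA a lower share of expressing cells and less RNA per cell cannot be told apart.

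Both anterior genes rose in Eo+ cells, and Lhx1 had the largest log2 fold change of the 7 members when the Eo+ fraction was set against either other group. Lhx1, which was the lowest but 1 of the 7 members in ESCs, was the most abundant of them in Eo+ cells per merged locus length. Per annotated exon length Mixl1 and Lhx1 were close there, at 149 ± 53.1 and 142 ± 42.8 FPKM (SD, n = 4). Its level in ESC replicates 1, 2, 5 and 6 was 0.857, 0.393, 1.37 and 0.272 FPKM. In Eo- cells it was 4.03, 3.36, 1.81 and 3.19 FPKM and in Eo+ cells 59.9, 110.0, 61.2 and 88.2 FPKM, in the same order of replicates. The 3 groups were separate from each other, with ESC lowest and Eo+ highest. Lhx1 rose by a log2 fold change of 6.99 ± 0.43 (SE) in Eo+ vs ESC (128-fold, adjusted p = 1.05e-08 in the limma fit over all loci tested). It also rose by 2.31 ± 0.47 in Eo- vs ESC (adjusted p = 0.000795) and was higher by 4.69 ± 0.30 in Eo+ vs Eo- (adjusted p = 1.68e-07).

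Gsc encodes a repressor of the organizer. Its level was 1.36, 0.948, 2.17 and 0.452 FPKM in ESC replicates 1, 2, 5 and 6. In Eo- replicates it was 1.26, 2.24, 1.23 and 1.18 FPKM, and in Eo+ replicates 17.5, 31.1, 25.9 and 28.0 FPKM. Eo- values lay within the range of the ESC libraries except for replicate 2, which was just above it, and the Eo+ values were above both. Gsc was higher by 4.54 ± 0.36 on the log2 scale in Eo+ vs ESC (adjusted p = 8.03e-08) and by 4.14 ± 0.33 in Eo+ vs Eo- (adjusted p = 9.42e-07), against 0.40 ± 0.44 in Eo- vs ESC, which did not pass the test (adjusted p = 0.447). Whether Lhx1 and Gsc differ in their Eo- change was not tested.

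Mixl1 followed the pattern of Gsc. It measured 2.53, 1.19, 3.72 and 0.536 FPKM in ESC replicates 1, 2, 5 and 6, and 3.52, 3.24, 0.906 and 2.86 FPKM in the Eo- replicates. The Eo+ replicates had 35.8, 63.8, 29.0 and 56.4 FPKM. ESC and Eo- libraries were intermingled and the Eo+ libraries were apart from both. Mixl1 was higher by 4.77 ± 0.51 on the log2 scale in Eo+ vs ESC (27.2-fold, adjusted p = 1.50e-06) and by 4.22 ± 0.46 in Eo+ vs Eo- (18.6-fold, adjusted p = 9.69e-06). In Eo- vs ESC the log2 fold change was 0.55 ± 0.59 (adjusted p = 0.432).

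**Figure D1:**
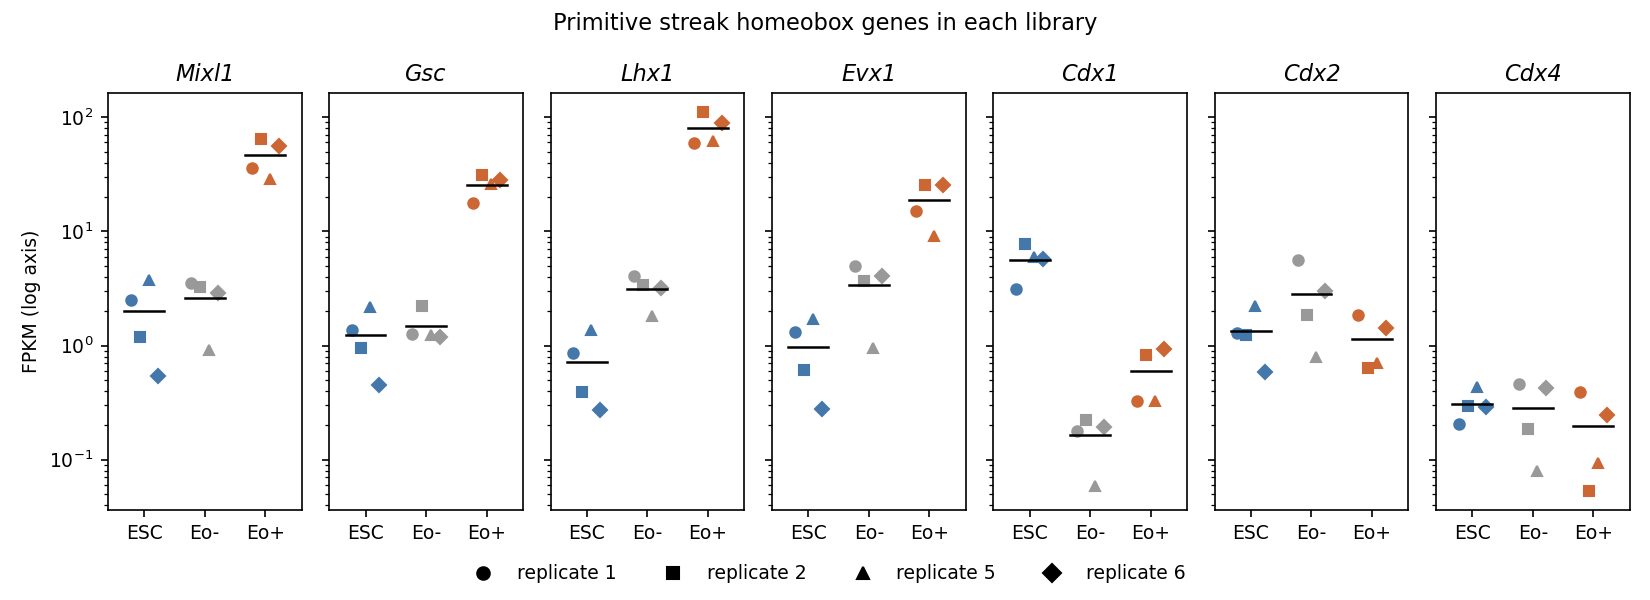
FPKM of each member in every library on a log axis, by group, with 1 symbol per replicate number and a bar at the mean of 4 libraries. Eo+ libraries of Mixl1, Gsc, Lhx1 and Evx1 sit above every ESC and Eo- library, Cdx1 is highest in ESCs, and the groups of Cdx2 and Cdx4 overlap.

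Of the posterior genes, Evx1 rose in Eo+ cells over both other groups. ESC replicates 1, 2, 5 and 6 had 1.32, 0.610, 1.72 and 0.280 FPKM. Eo- replicates had 5.00, 3.68, 0.947 and 4.03 FPKM and Eo+ replicates 15.1, 25.4, 9.19 and 25.4 FPKM. Eo- replicate 5 fell within the ESC range, whereas the other Eo- libraries were between ESC and Eo+. Evx1 rose by 4.42 ± 0.65 on the log2 scale in Eo+ vs ESC (adjusted p = 3.16e-05) and was higher by 2.55 ± 0.48 in Eo+ vs Eo- (5.87-fold, adjusted p = 0.000723). The rise in Eo- vs ESC, 1.87 ± 0.70 (adjusted p = 0.0333), no longer passed the test when any 1 of ESC replicates 2 and 6 or Eo- replicates 1, 2 and 6 was left out (adjusted p = 0.0672 to 0.104).

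Cdx1, a caudal factor that responds to Wnt and retinoic acid, was highest in ESCs and fell in both day 3 fractions. It measured 3.11, 7.76, 6.01 and 5.76 FPKM in ESC replicates 1, 2, 5 and 6. In Eo- replicates it was at 0.179, 0.224, 0.0592 and 0.195 FPKM and in Eo+ replicates at 0.325, 0.824, 0.327 and 0.924 FPKM. No 2 groups overlapped, and the order was ESC, Eo+, Eo-. Cdx1 fell by 3.33 ± 0.41 on the log2 scale in Eo+ vs ESC (10.1-fold, adjusted p = 5.50e-06) and by 5.17 ± 0.51 in Eo- vs ESC (36.0-fold, adjusted p = 1.66e-06). It was higher by 1.84 ± 0.59 in Eo+ vs Eo- (3.58-fold, adjusted p = 0.0193), a difference that was 1.42 with adjusted p = 0.0633 without Eo- replicate 5, the library with 81 counts. Whether the ESC level stems from the reporter cells or from the feeders present at day 0 was not tested. Summed feeder markers in ESC replicates 1, 2, 5 and 6 were 229.8, 110, 183 and 91.9 CPM.

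Cdx2, the trophectoderm and tail bud factor, did not pass the test in the 3 comparisons when libraries were not paired. Its level was 1.29, 1.24, 2.23 and 0.589 FPKM in ESC replicates 1, 2, 5 and 6. The Eo- replicates had 5.65, 1.86, 0.799 and 3.0 FPKM and the Eo+ replicates 1.85, 0.632, 0.698 and 1.42 FPKM. The groups overlapped, and Eo- replicate 1 was the highest of the 12 libraries. The log2 fold changes of Cdx2 were -0.24 ± 0.62 in Eo+ vs ESC (adjusted p = 0.743), 0.90 ± 0.55 in Eo- vs ESC (adjusted p = 0.171) and -1.14 ± 0.57 in Eo+ vs Eo- (adjusted p = 0.116). Within each differentiation set, however, Cdx2 was lower in the Eo+ fraction in 4 of 4 sets, and with the replicate number as a block the difference in Eo+ vs Eo- was called at -1.21 ± 0.44 (adjusted p = 0.0391). Cdx2 was also called in Eo- vs ESC with that block (1.12, adjusted p = 0.0399) and without Eo- replicate 5 (1.38, adjusted p = 0.02). Without that library it was called in Eo+ vs Eo- as well (-1.62, adjusted p = 0.0149). The block also pairs ESC libraries by number, although same-numbered ESC and Eo- deviations from the group means correlated at only -0.122 to 0.352.

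Cdx4, which acts with Cdx1 and Cdx2 in posterior patterning and blood formation, was the least abundant member in ESC and Eo+ cells. ESC replicates 1, 2, 5 and 6 had 0.206, 0.296, 0.437 and 0.291 FPKM, Eo- replicates 0.457, 0.186, 0.0793 and 0.424 FPKM, and Eo+ replicates 0.392, 0.0535, 0.0931 and 0.248 FPKM. The groups overlapped throughout, and replicate 1 was highest in both day 3 fractions. For Cdx4 the log2 fold changes were -1.0 ± 0.62 in Eo+ vs ESC (adjusted p = 0.161), -0.34 ± 0.58 in Eo- vs ESC (adjusted p = 0.628) and -0.66 ± 0.63 in Eo+ vs Eo- (adjusted p = 0.408).

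Read over the 7 members, 5 were called in Eo+ vs ESC, 4 higher and 1 lower, where 71.9% of all loci tested were called (35.8% higher, 36.1% lower). In Eo- vs ESC 3 were called, 2 higher and 1 lower, with 62.2% of all loci called (30.9% higher, 31.3% lower). In Eo+ vs Eo- 5 were called, each higher, with 47.7% of all loci called and 23% called higher. The 5 were also at least 2-fold higher, as 6.12% of all loci were, with 15% at least 2-fold lower. Libraries of the 2 groups did not overlap for 5, 2 and 5 members in the same order of comparisons, where 64.5%, 55.8% and 45.9% of all loci tested did not overlap. As a median over the members, log2 fold changes were 4.42, 0.55 and 2.55, beside medians of 0.0024, 0.016 and -0.015 over all loci tested. The first 2 comparisons share the ESC libraries, and all 3 share groups.

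**Figure D2:**
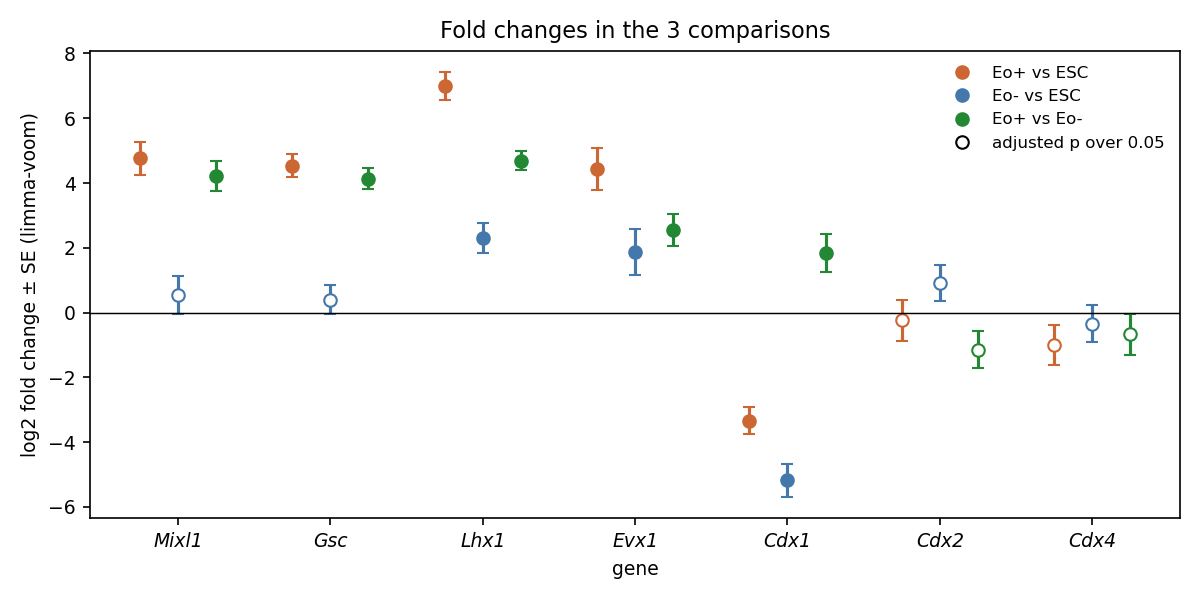
Log2 fold change with its SE for each member in the 3 comparisons, from the limma fit, with open circles where the adjusted p was over 0.05. Lhx1 has the largest rise in Eo+ vs ESC at 6.99, Cdx1 is below 0 in both comparisons with ESC, and Cdx2 and Cdx4 have open circles in the 3 comparisons.

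The order of the members changed from one state to the next, given first per merged locus length. In ESCs Cdx1 led with 5.66 ± 1.92 FPKM (SD, n = 4), followed by Mixl1 at 1.99 ± 1.42 FPKM. Cdx2 (1.34 ± 0.676), Gsc (1.23 ± 0.728), Evx1 (0.980 ± 0.654), Lhx1 (0.722 ± 0.498) and Cdx4 (0.308 ± 0.0955 FPKM) came next. Every neighbouring pair in this ESC order had overlapping ranges of libraries. Within each ESC library, however, Cdx1 was above Mixl1, Gsc above Evx1 and Evx1 above Lhx1.

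In Eo- cells the order was Evx1 (3.42 ± 1.74 FPKM), Lhx1 (3.10 ± 0.930), Cdx2 (2.83 ± 2.08), Mixl1 (2.63 ± 1.18) and Gsc (1.48 ± 0.510 FPKM), with libraries that overlapped from each gene to the next. Cdx4 (0.287 ± 0.183) and Cdx1 (0.164 ± 0.0726 FPKM) were below Gsc in each library and overlapped each other. In Eo+ cells the order was Lhx1 (79.8 ± 24.0 FPKM), Mixl1 (46.2 ± 16.5), Gsc (25.6 ± 5.80) and Evx1 (18.8 ± 8.03 FPKM). After a gap followed Cdx2 (1.15 ± 0.586), Cdx1 (0.60 ± 0.319) and Cdx4 (0.197 ± 0.155 FPKM). Neighbours in the Eo+ order had overlapping ranges except Evx1 and Cdx2. Within each Eo+ library, however, Lhx1 was above Mixl1, Mixl1 above Gsc and Gsc above Evx1.

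Per annotated exon length, with the counts of the whole merged locus kept, Mixl1 came first in each group. Mixl1 had the largest share of locus exon bases outside the annotated exons (68.9%), so the shorter length raised it most. In ESCs it had 6.40 ± 4.55 FPKM against 5.97 ± 2.02 for Cdx1, and in Eo- cells 8.46 ± 3.80 FPKM against 7.49 ± 3.81 for Evx1, 7.48 ± 5.51 for Cdx2 and 5.53 ± 1.66 for Lhx1. Libraries of Mixl1 and of each of these genes overlapped in both groups. Cdx4 in ESC and Eo+ cells and Cdx1 in Eo- cells were last with either length.

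The balance of both sets of genes was described by the anterior share, the summed FPKM of Gsc and Lhx1 as a percentage of the summed FPKM of Gsc, Lhx1, Evx1, Cdx1, Cdx2 and Cdx4. It was 27.2%, 11.9%, 25.4% and 9.48% in ESC replicates 1, 2, 5 and 6, and 31.9%, 48.5%, 61.8% and 36.4% in the Eo- replicates. The Eo+ replicates had 81.4%, 84.0%, 89.4% and 80.6%. Per merged locus length the groups did not overlap, with means of 18.5% ± 9.10 in ESC, 44.6% ± 13.4 in Eo- and 83.9% ± 3.98 in Eo+ cells (SD, n = 4 each). Per annotated exon length the means were 21.2%, 38.7% and 81.0%. ESC replicates 1 (28.7%) and 5 (27.6%) were then above Eo- replicate 1 (26.1%), while Eo+ stayed apart. No test was run on this share, since its genes were chosen with results known.

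The low share in ESCs rested on Cdx1, which made up 56.4% ± 18.5 of the 6-gene sum there, against 1.46% ± 0.396 in Eo- and 0.452% ± 0.145 in Eo+ cells. Without Cdx1 the shares were 41.4% in ESC, 45.3% in Eo- and 84.2% in Eo+ cells, and the ESC libraries (38.4% to 44.7%) then lay within the range of the Eo- libraries (32.3% to 62.5%). The high share in Eo+ cells rested on Lhx1, which made up 63.1% ± 1.78 of the sum in Eo+ cells. Without Lhx1 the shares were 12.7%, 22.6% and 56.2% in the same order, and without Evx1 they were 21%, 62.0% and 98.1%. In Eo- cells Lhx1 made up 29.2% ± 5.43 and Evx1 28.7% ± 6.47 of the sum. Evx1 was above Lhx1 in Eo- replicates 1, 2 and 6 and below it in replicate 5 (19.2% against 36.8%). The posterior part of the Eo+ sum was mostly Evx1, which was 85.5% to 94.4% of the posterior FPKM of an Eo+ library.

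**Figure D3:**
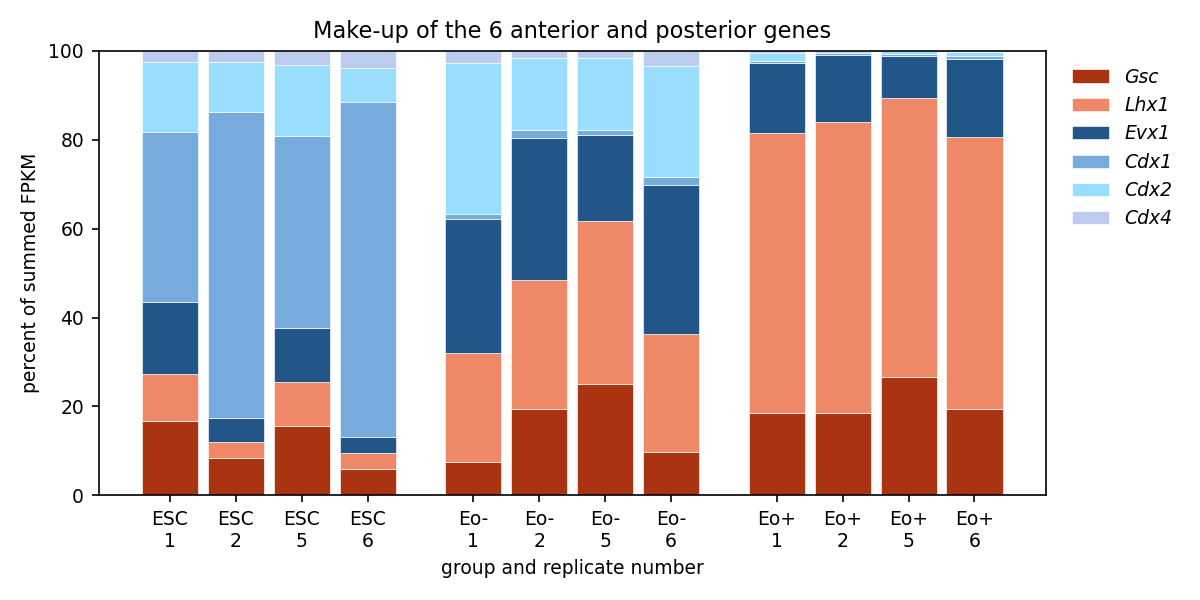
Percent of the summed FPKM of the 6 anterior (red) and posterior (blue) genes held by each gene, 1 bar per library. Anterior genes hold 80.6% to 89.4% in Eo+ libraries, Cdx1 holds 38.3% to 75.3% in ESC libraries, and among the Eo- bars Cdx2 has its largest part in replicate 1.

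Differences between replicates were large for these genes and shared between members. In ESCs Mixl1, Gsc, Lhx1, Evx1 and Cdx2 had the same order of libraries, with replicate 5 highest, followed by 1, 2 and 6. The highest library was 6.93 times the lowest for Mixl1, 6.14 times for Evx1, 5.03 times for Lhx1, 4.81 times for Gsc and 3.79 times for Cdx2. Replicate 5 also had the highest mesendoderm marker sum of the ESC libraries (252 CPM) and the lowest pluripotency sum (2626 CPM), and replicate 6 the lowest mesendoderm sum (88.0 CPM). Cdx1 and Cdx4 had other orders. The part of the mesendoderm marker level in this was not tested.

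In the Eo- fraction replicate 5 was lowest for Mixl1, Lhx1, Evx1, Cdx1, Cdx2 and Cdx4, and it had the lowest mesendoderm sum of the Eo- libraries (254 CPM). In the Eo+ fraction replicates 2 and 6 were the highest for Mixl1, Lhx1, Evx1 and Gsc, whereas Cdx2 and Cdx4 were highest in replicate 1 and lowest in replicate 2. These are descriptions of 4 libraries a group.

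Eo- and Eo+ libraries of the same number were taken as 1 differentiation set, which allows each member to be compared within a set. The log2 ratio of CPM in Eo+ over Eo- for replicates 1, 2, 5 and 6 was 3.89, 5.03, 5.08 and 4.79 for Lhx1 and 3.80, 3.79, 4.40 and 4.57 for Gsc. It was 3.35, 4.30, 5.00 and 4.30 for Mixl1. These ratios were positive in 4 of 4 sets and at or above 3.35 in each.

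Evx1 had smaller ratios, 1.59, 2.79, 3.28 and 2.65, and Cdx1 had 0.86, 1.88, 2.47 and 2.25. Replicate 1 gave the smallest ratio, and replicate 5 the largest, for Mixl1, Lhx1, Evx1 and Cdx1. Cdx2 had -1.61, -1.56, -0.19 and -1.08 and Cdx4 -0.22, -1.80, 0.23 and -0.78, so that Cdx2 was lower in Eo+ cells in 4 sets and Cdx4 in 3 of 4.

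**Figure D4:**
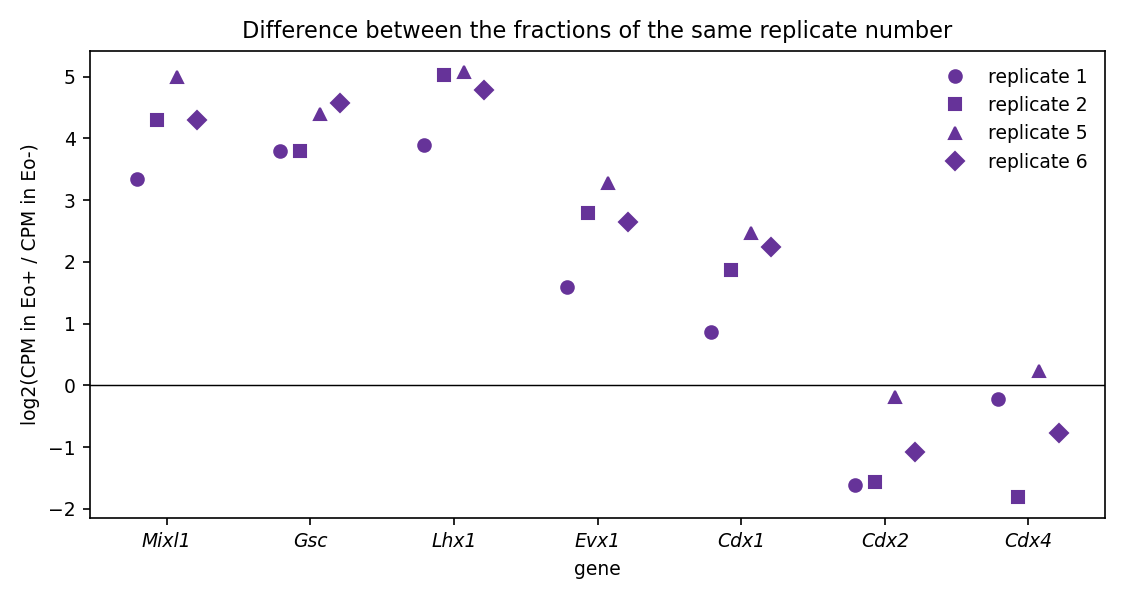
Log2 ratio of CPM in Eo+ over Eo- cells within each differentiation set, 1 symbol per replicate number. Mixl1, Gsc and Lhx1 lie between 3.35 and 5.08, Evx1 and Cdx1 lower but above 0, Cdx2 below 0 in each set and Cdx4 on both sides of 0.

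In replicate 1 of both fractions, markers of other cell types were high along with Cdx2 and Cdx4. Cdx1 was not high there, being lowest in Eo+ replicate 1 and the third of 4 in Eo- replicate 1. Mixl1, Lhx1 and Evx1 also had their highest Eo- level in replicate 1. Eo- replicate 1, the library with most Cdx2, had a sum of 101 CPM over 5 primitive erythroid markers, compared with 3.74 to 5.66 CPM in the other Eo- libraries. Of that, 73.4 CPM was Hbb-bh1, an embryonic globin. Eo+ replicate 1, highest in Cdx2 and Cdx4 within its fraction, had the highest sums of the Eo+ libraries for 8 trophoblast markers (149 CPM, others 47.5 to 103 CPM), 7 visceral endoderm markers (82.1 CPM, others 10.5 to 44.7 CPM) and the erythroid markers (15.4 CPM, others 1.36 to 4.94 CPM).

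Hand1, a basic helix-loop-helix factor of both trophoblast and extraembryonic mesoderm, was 121 CPM of that trophoblast sum. In Eo+ replicates 1, 2, 5 and 6 Hand1 measured 121, 34.8, 18.0 and 74.4 CPM and in Eo- replicates 22.7, 4.25, 2.52 and 10.5 CPM. Its order of libraries in Eo- cells, 1, 6, 2 and 5, was the order of Cdx2, Cdx4 and Evx1 there. The mesendoderm marker T had the same order, with 311, 228, 109 and 272 CPM in Eo- replicates 1, 2, 5 and 6. Of the 8 trophoblast markers 6 were tested, of which Hand1, Gata3, Krt7 and Plac1 were higher in Eo+ vs Eo-, Ascl2 was lower and Tfap2c did not pass (23% of all loci were higher and 24.6% lower). Gata3 (9.80 CPM) and Plac1 (5.11 CPM) were highest in Eo+ replicate 1, and Krt7 was highest in Eo+ replicate 5 (14.9 CPM). Elf5 did not exceed 0.187 CPM and Tpbpa did not exceed 1 count in any library. The part of these cell types in the Cdx levels was not tested. Without Eo- replicate 1 the log2 fold change of Cdx2 in Eo+ vs Eo- was -0.68 (adjusted p = 0.290) and without Eo+ replicate 1 it was -1.43 (adjusted p = 0.0864), and the number of members called in that comparison was 5 in both cases.

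On the strand opposite to 4 members lay transcripts called higher in Eo+ vs Eo-, as those members were. Lhx1os, a long noncoding RNA (lncRNA) at chr11:84525647-84535902 on the plus strand, starts inside the Lhx1 window printed above. It measured 0.285, 0.209, 0.603 and 0.137 CPM in ESC replicates 1, 2, 5 and 6, 2.40, 1.54, 1.11 and 1.79 CPM in Eo- and 17.3, 20.7, 17.6 and 19.7 CPM in Eo+ replicates. The 3 groups were separate, in the order of Lhx1. On the log2 scale Lhx1os changed by 6.12 ± 0.33 in Eo+ vs ESC (adjusted p = 2.86e-09), 2.62 ± 0.37 in Eo- vs ESC (adjusted p = 3.75e-05) and 3.50 ± 0.23 in Eo+ vs Eo- (adjusted p = 2.07e-07).

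The lncRNA 5730457N03Rik runs antisense across the Evx1 start, at chr6:52301918-52315745 on the minus strand. It had 2.37, 0.625, 3.09 and 0.342 CPM in ESC replicates 1, 2, 5 and 6, 13.5, 8.38, 2.67 and 10.2 CPM in Eo- and 45.1, 67.5, 26.1 and 69.7 CPM in Eo+ replicates. As for Evx1, Eo- replicate 5 fell within the ESC range and the Eo+ libraries were above the rest. Log2 fold changes were 5.40 ± 0.71 (adjusted p = 1.06e-05), 2.72 ± 0.78 (adjusted p = 0.00798) and 2.68 ± 0.49 (adjusted p = 0.000595) in Eo+ vs ESC, Eo- vs ESC and Eo+ vs Eo-.

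At Gsc, the transcript Gm10000 (chr12:104474488-104477755, plus strand) begins 40 bases from the 5′ end of the merged Gsc locus and overlaps it head to head. Gsc as annotated starts at base 104473330, outside Gm10000. Gm10000 belonged to no class tested. Its mean was 0.0246 CPM in ESCs, 0.0915 CPM in the Eo- and 0.719 CPM in the Eo+ fraction, from 7 to 570 counts per library. In a fit without a filter, over 69779 loci, it was higher by 2.99 ± 0.29 on the log2 scale in Eo+ vs Eo- (adjusted p = 2.48e-06) and by 1.95 ± 0.46 in Eo- vs ESC (adjusted p = 0.00307), where Gsc itself did not pass. At Mixl1 an unnamed locus lay at chr1:180697727-180699082 on the plus strand, with its 5′ end 323 bases from that of the merged Mixl1 locus. Mixl1 as annotated starts at base 180697034, outside the unnamed locus. The unnamed locus went from 0.0392 CPM in ESCs to 0.103 CPM in the Eo- and 0.472 CPM in the Eo+ fraction. It was higher by 2.11 ± 0.32 in Eo+ vs Eo- in the same fit (adjusted p = 0.000164) and by 1.36 ± 0.44 in Eo- vs ESC (adjusted p = 0.0206), where Mixl1 itself did not pass.

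The counting used strand, so these counts are separate from those of the members. Exon bases shared with the merged locus of the member on the other strand were 4.69% of Lhx1os, 33.2% of 5730457N03Rik, 1.25% of Gm10000 and 23.9% of the Mixl1 neighbour. Of these transcripts only 5730457N03Rik also reaches into the gene as annotated. The level of Lhx1os was 2.58% to 8.44% of that of Lhx1 (mean 6.24% in ESC, 7.67% in Eo- and 3.39% in Eo+), and 5730457N03Rik was 16.3% to 47.4% of Evx1. How far reads assigned to the wrong strand add to these counts was not tested. Lin9 and Parp1, whose loci overlap that of Mixl1 on the other strand, did not rise with it. Lin9 did not pass the test in the 3 comparisons (log2 fold changes -0.10 to 0.14), and the locus of Parp1 and Mir6904 was lower by 0.59 ± 0.09 in Eo+ vs Eo- (adjusted p = 0.000163).

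At Cdx2 and Cdx4 opposite-strand transcripts had low counts. An unnamed locus that overlaps the 3′ end of the Cdx2 locus had 0.0918, 0.0955 and 0.0795 CPM in ESC, Eo- and Eo+ cells and was not called in the unfiltered fit in the 3 comparisons (adjusted p = 0.548 to 0.810). Of the other loci opposite Evx1, Gm8129 was not called in Eo+ vs Eo- in that fit (-0.31 ± 0.24, adjusted p = 0.435) and was higher in Eo- vs ESC (0.72 ± 0.25, adjusted p = 0.032). Gm15054 was listed at 0 counts in the 12 libraries. An unnamed locus with at most 70 counts was higher in Eo+ vs ESC (4.44 ± 0.90, adjusted p = 0.000587) and was not called in Eo- vs ESC (adjusted p = 0.085) or Eo+ vs Eo- (adjusted p = 0.0743). A locus 705 bases from the 5′ end of the merged Cdx4 locus had 0.0101, 0.0387 and 0.0318 CPM, with at most 53 counts in a library. It was higher in Eo- vs ESC (1.86 ± 0.70, adjusted p = 0.0438).

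**Figure D5:**
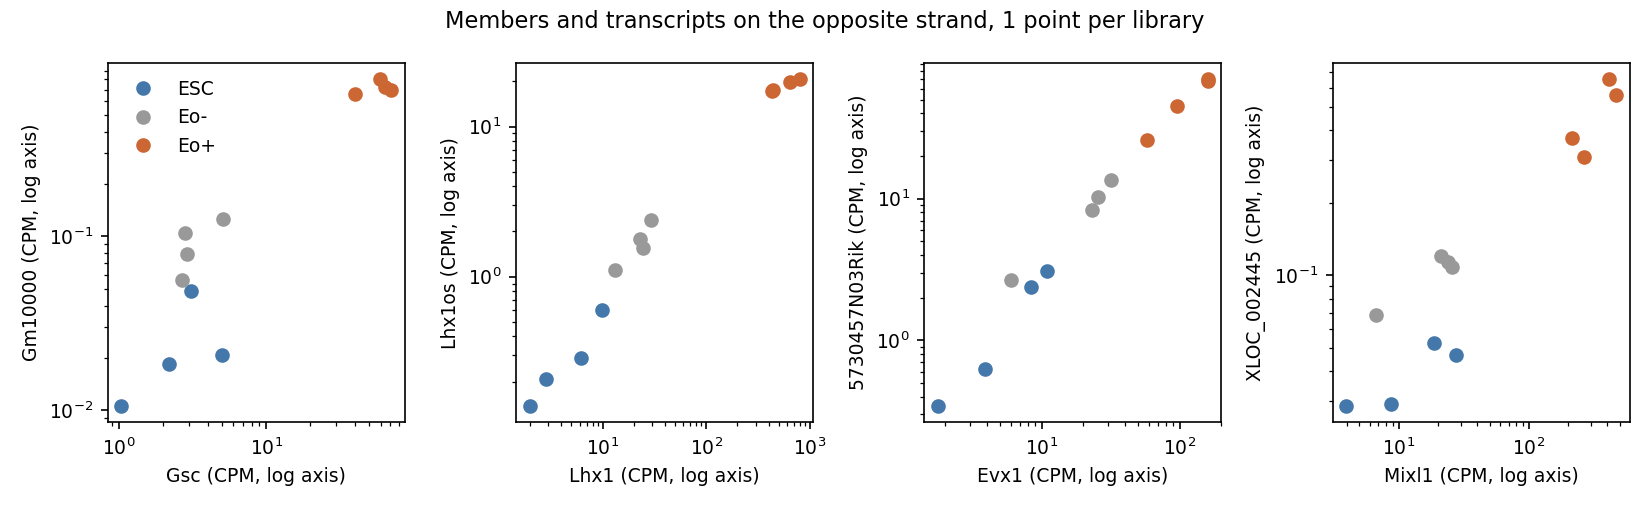
CPM of each of 4 members (x, log axis) against the transcript on the opposite strand (y, log axis), 1 point per library, coloured by group. Eo+ libraries lie at the upper right in each panel, and the y axes reach far lower levels for Gm10000 and the unnamed Mixl1 neighbour (at most 0.801 and 0.651 CPM) than for 5730457N03Rik (69.7 CPM).

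Genes of the same positional programmes were read from lists chosen with results of these data known. In Eo+ vs Eo-, 8 of 11 anterior streak and organizer genes were higher (median change 2.14 on the log2 scale) beside 23% of all loci tested (24.6% were lower). The largest were the Nodal, Wnt and BMP antagonist Cer1 (3.97 ± 0.25), the endoderm factor Sox17 (3.62 ± 0.32), the Wnt inhibitor Dkk1 (3.09 ± 0.25), Foxa2 (2.78 ± 0.22) and Hhex (2.49 ± 0.22). Nog (0.24 ± 0.35), Otx2 (-0.21 ± 0.20) and Shh (-1.08 ± 0.44) did not pass the test. Of 7 visceral endoderm markers tested, 4 were higher and 3 not called in Eo+ vs Eo- (median 2.77). Against ESC 5 were higher in Eo+, 1 was lower and 1 was not called (median 3.45), beside 35.8% and 36.1% of all loci, and the part of these markers in the list was not tested. Of 5 genes for LHX1 partner proteins 1 was higher, 1 lower and 3 not called in Eo+ vs Eo-. Ldb1 differed by -0.01 ± 0.10 (adjusted p = 0.937), Ssbp3 was higher by 0.23 ± 0.07 and Ssbp2 lower by 0.94 ± 0.11.

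Among 16 genes of the posterior streak and Wnt signalling 10 were higher in Eo+ vs Eo- and 2 lower (all loci 23% and 24.6%), with a median of 1.03 on the log2 scale. Cyp26a1, which degrades retinoic acid, was higher by 4.06 ± 0.30, the Wnt target Sp5 by 2.90 ± 0.38, Wnt5a by 2.50 ± 0.50, Wnt3 by 2.00 ± 0.32 and the paraxial mesoderm factor Tbx6 by 1.77 ± 0.41. The 2 that were lower were Nkx1-2 (-0.91 ± 0.30), a marker of the caudal epiblast, and the locus of Fgf17 (-0.56 ± 0.13), which the assembly joined with Dmtn and Fam160b2. Of these 2, 1 was left without any 1 of Eo- replicates 1, 2 and 6 and Eo+ replicates 2 and 5. Rises were found in both the anterior and the posterior list, as among the members themselves.

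Of 13 signalling inputs of the Nodal and BMP pathways 11 were higher and 2 lower in Eo+ vs Eo-, beside 23% and 24.6% of all loci. Eomes is among the 11, and its difference was set by the sort. The ligands Bmp2 (3.61 ± 0.40) and Bmp4 (1.77 ± 0.48), the transducer Smad1 (2.05 ± 0.15) and Eomes (1.94 ± 0.15) were among the higher. The lower ones were the ligands Gdf3 (-4.65 ± 0.26) and Nodal (-0.78 ± 0.15).

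Hox genes, known targets of the CDX proteins, were listed with Evx2 as 25 genes on 23 loci, of which 20 were tested. In Eo+ vs ESC 12 loci were lower and 4 higher, with a median of -2.96 on the log2 scale, beside 36.1% and 35.8% of all loci, and in Eo- vs ESC 10 were lower, beside 31.3% of all loci, and the other 10 did not pass the test. Of 7 feeder fibroblast markers tested, 7 were lower in Eo+ vs ESC. Between Eo- and ESC 5 were lower in Eo-, 1 was higher and 1 was not called. Their part in the Hox levels was not tested. In Eo+ vs Eo- 8 Hox loci were lower and 4 higher (median -1.61), beside 24.6% and 23% of all loci. Those higher in Eo+ vs Eo- were Hoxb1 (2.04 ± 0.58), Hoxb2 (2.91 ± 0.65), Hoxb3 (1.93 ± 0.67) and Hoxa13 (2.28 ± 0.77), and Hoxb1 reached 17.3 CPM in Eo+ against 4.28 CPM in Eo- cells. The lower loci included Hoxc8 (-3.67 ± 1.23), the joint locus of Hoxa5 and Hoxa6 (-3.43 ± 1.21), Hoxa7 (-3.17 ± 0.68), Hoxa4 (-3.13 ± 0.89) and the locus of Hoxb9, Gm53 and Mir196a-1 (-2.99 ± 0.33). Of these the Hoxb9 locus had the highest Eo- mean, at 2.19 CPM, and the other 4 loci were at most 0.277 CPM in both fractions. Eo- replicate 1, the library with most erythroid RNA, had 0.475 CPM of Hoxc8 while the rest of that fraction had 0.0694 to 0.0930 CPM, and 0.556 CPM of the Hoxa5 and Hoxa6 locus against 0.0643 to 0.173 CPM. Without that library these 2 loci were no longer called (-3.01, adjusted p = 0.0511, and -2.85, adjusted p = 0.066), which left 6 lower and 4 higher with a median of -1.03. Without Eo+ replicate 2 or without Eo+ replicate 6 the number lower was also 6. Only 2 were called higher without any 1 of Eo- replicates 2, 5 and 6 and Eo+ replicate 1.

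Among 20 tested loci of other homeobox genes 9 were higher and 6 lower in Eo+ vs Eo-, beside 23% and 24.6% of all loci. Pou3f1, a factor of the epiblast and neural ectoderm, was lower by 3.42 ± 0.26, whereas Msx2 (3.37 ± 0.53), Nkx2-5 (2.93 ± 0.45), Lhx5 (2.48 ± 0.40) and the locus of Meis2 and 2700033N17Rik (2.36 ± 0.42) were higher. Lhx5, a close relative of Lhx1, had 0.747 CPM in Eo+ cells.

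For each member the 3 protein-coding loci with the most alike profile were sought among 11800 with a mean of at least 1 CPM in some group, by the root mean square difference of mean-centred log2(CPM + 0.1) over the 12 libraries. For Gsc the closest was Mixl1 (0.528), followed by Wnt2b (0.543) and Lmo1 (0.554). For Mixl1 they were Six2 (0.439), Cdh11 (0.515) and Wnt2b (0.517), for Lhx1 Cyp26a1 (0.553), Vax1 (0.554) and Sema6d (0.594), and for Evx1 Kcnc1 (0.509), Msx1 (0.520) and Grrp1 (0.531). None of these lists contains a Cdx gene.

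The profiles nearest to the Cdx genes were of other kinds. For Cdx1 the first 2 were Mras (0.486) and Gad1 (0.703), which have their highest mean in ESCs as Cdx1 does, with Mras at 30.0 CPM there and at 1.14 and 2.50 CPM in Eo- and Eo+ cells. Those of Cdx2 were Esam (0.457), an endothelial adhesion molecule, Nkx1-2 (0.504) and Dll4 (0.554), a Notch ligand of endothelium, and each of the 3 had its highest mean in Eo- cells. Those of Cdx4 were Dmgdh (0.521), Aldh1a2 (0.536), which makes retinoic acid, and Fgfr3 (0.558). For genes that vary little between the groups, as Cdx4 did, the measure follows differences between replicates.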

How the data were processed

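RNA was sequenced from 12 libraries in 3 groups of 4, as poly(A)-selected, strand-aware paired reads. Per the labels and methods, the authors mapped reads to mm10 with STAR (2.0.4 in the submitters' processing notes, while the methods name another version), merged Cufflinks 2.2.1 assemblies with Ensembl gene models, and tallied reads in the resulting loci by HTSeq 0.6.1. The deposited counts are whole numbers, not normalized, for 80012 loci. They exceed the number of reads per library that the labels give, and whether mates were counted singly is not given in the sources used here. A normalized table made by the authors from the same counts was not used. 5 tally lines of HTSeq stayed out of library sizes and tests. The deposited transcript annotation gave exon positions of 79655 loci, and every count column belonged to a labelled sample.

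CPM used TMM-scaled library sizes (factors 0.955 to 1.06), and FPKM divided CPM by the summed exon length of the locus in kilobases. Loci of protein-coding genes and of annotated or multi-exon unannotated lncRNAs with a mean FPKM over 0.1 in at least 1 group were tested, 17922 in all. limma 3.58.1 with voom in R 4.3.3 (TMM from edgeR 4.0.16) fitted 1 mean per group over 12 libraries. Moderated two-sided tests had 13.5 degrees of freedom. Benjamini-Hochberg adjustment ran over all loci tested, with calls at 0.05 or less. Alternatives used edgeR, DESeq2 1.42.0, other scalings, filters, a replicate block and fits without 1 library. The script was tested on simulated data. Intervals of counts and the floor of 3 counts cover counting error only, since reads carried no molecular identifiers.

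Replicate numbers were taken as pairing Eo- and Eo+ libraries, because the methods name separate differentiation sets and same-numbered deviations from the group means correlated at 0.634, 0.316, 0.348 and 0.355. The methods count ESC libraries in these sets too, but same-numbered ESC deviations correlated with those of the fractions at -0.122 to 0.352.

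Named were the 7 members, up to 5 called genes with the largest change in Eo+ vs Eo- from each list, opposite-strand loci that overlap a member or start within 5000 bp of it, and 3 closest profiles, of which 1 is not reported here. Genes of a list that were lower or not called were named after their values were seen where they were few, as were Hand1, Elf5, Tpbpa and Hbb-bh1 and the Hox genes that were higher. The members and lists were chosen with earlier results of these data known. Promoter windows and annotated gene limits came from RefSeq (GRCm38.p6) and GENCODE M21, both on the build of the files. Figures were drawn with matplotlib.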

Additional observations from a re-analysis of the deposited data

Results flagged for a closer look

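Of 42 groups of 4 libraries examined (members, their nearest opposite-strand transcripts and the anterior share), 1 held a library far from the others, where chance alone marks about 1 group in 20. Gsc in Eo- replicate 2 measured 5.13 CPM while the other Eo- libraries lay between 2.70 and 2.88 CPM.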

How the results depend on the processing

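Among member fold changes recomputed under alternatives, 413 kept direction and call, 5 gained a call, 6 lost one and 3 turned direction. Left out 1 at a time, libraries moved Cdx2 in Eo+ vs ESC from -0.56 to 0.056 and Cdx4 in Eo- vs ESC from -0.67 to 0.16, neither called. Cdx2 in Eo- vs ESC was called without Eo- replicate 5 (1.38, adjusted p = 0.02), as was Cdx2 in Eo+ vs Eo- (-1.62, adjusted p = 0.0149). Cdx1 lost its call in Eo+ vs Eo- without that same library (1.42, adjusted p = 0.0633). Over libraries left out, the number of members called was 5 for Eo+ against either other group, with Cdx2 in place of Cdx1 in that case, and ran from 2 to 4 in Eo- vs ESC. Loci called ran from 12347 to 12873 in Eo+ vs ESC, 10239 to 11309 in Eo- vs ESC and 7476 to 8844 in Eo+ vs Eo-.

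With the replicate number as a block, 6 members were called in Eo+ vs Eo- and 4 in Eo- vs ESC, Cdx2 being the one added in both (1.12, adjusted p = 0.0399 in the latter), and loci called were 13402, 11839 and 9555. A block fitted in only the 8 libraries of the fractions, an alternative chosen after seeing the data, gave Cdx2 -1.24 with adjusted p = 0.000670 and 10392 loci. The block changed no other member call. Over its alternatives Cdx2 in Eo+ vs Eo- had adjusted p from 0.000670 to 0.290.

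Without a filter 33778, 27776 and 14761 loci were called in Eo+ vs ESC, Eo- vs ESC and Eo+ vs Eo-, against 12888, 11154 and 8543, since more loci were tested. With at least a 2-fold change required there were 6830, 5069 and 3789. The anterior share moved to 41.4% in ESC without Cdx1 and to 7.96% without Gsc, to 22.6% in Eo- without Lhx1, and in Eo+ to 56.2% without Lhx1 and 79.8% without Gsc. Without Evx1, an alternative chosen after seeing the data, it was 62.0% in Eo- and 98.1% in Eo+. Without Cdx2 it was 57.1% in Eo-, and over libraries left out it reached 84.9% in Eo+. As a difference of mean log2 FPKM, anterior minus posterior, it was -0.48 in ESC, 1.54 in Eo- and 5.29 in Eo+, and the order of groups was kept. With a pseudocount of 1 in place of 0.1, none of the 3 closest profiles was shared for Gsc and Cdx1.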
